A study of Mus musculus with 8 samples.

Results

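The 32 collagen chain genes described here are those of the fibril-forming, basement membrane and other collagen families that are not restricted to cartilage, taken as a list of gene symbols. All 32 had at least 1 probe set, a group of short probes for 1 transcript, whose platform annotation gave that symbol alone, out of 18193 genes tested. Where a gene had several, the brightest on average across arrays stood for it, and the others served as a check. The 10 fibrillar members were Col1a1, Col1a2, Col3a1, Col5a1, Col5a2, Col5a3, Col11a1, Col11a2, Col24a1 and Col27a1. The 8 basement membrane members were Col4a1 to Col4a6, Col15a1 and Col18a1. The other 14 were the filament, network, fibril-associated and membrane-spanning chains.

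Bone metastases were compared with primary tumours in the 4T1.2 model, a clone of the mouse mammary carcinoma line 4T1 that spreads to bone from the mammary gland. The 4 bone metastases were spine metastases and the 4 primary tumours grew in the mammary gland, both in Balb/c mice, for which the labels give no treatment, genetic change or age. A bone metastasis and a primary tumour with the same number were taken from 1 mouse, according to the series' design text, which makes 4 mice. The labels describe the material as isolated tumour epithelial cells, without the method of isolation, and RNA was amplified in 2 rounds before hybridization.

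Collagens are built of 3 chains wound into a triple helix, assembled in the endoplasmic reticulum after hydroxylation of prolines and lysines and secreted into the extracellular matrix. Fibrillar collagens form the cables of bone, skin and tumour stroma, type IV collagen forms the sheet of basement membranes under epithelia and around vessels, and smaller families link or anchor these structures. In carcinomas most fibrillar collagen is known to come from fibroblasts, and in bone type I collagen from osteoblasts, whereas epithelial cells can make basement membrane chains.

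Promoter windows of 300 bases, 250 before and 50 after an annotated transcript start, were in RefSeq's mouse annotation of GRCm38.p6 for 27 of the 32 members. Col1a1, Col4a3, Col5a2, Col12a1 and Col14a1 had none in that table. Col4a1 and Col4a2, which encode the chains that assemble together in nearly every basement membrane, are shown first because they are transcribed in opposite directions from starts 21 bases apart, so that their windows overlap. The capitals mark the stretch of 78 bases that both windows share, read on opposite strands.
Col4a1 (chr8:11312777-11313076, minus strand): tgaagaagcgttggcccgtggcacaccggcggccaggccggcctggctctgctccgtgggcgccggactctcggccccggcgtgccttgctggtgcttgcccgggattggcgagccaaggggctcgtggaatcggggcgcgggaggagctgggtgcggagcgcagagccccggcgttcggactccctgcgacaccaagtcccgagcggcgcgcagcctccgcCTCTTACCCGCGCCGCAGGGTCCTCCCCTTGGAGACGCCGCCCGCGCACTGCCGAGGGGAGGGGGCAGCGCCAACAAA
Col4a2 (chr8:11312555-11312854, plus strand): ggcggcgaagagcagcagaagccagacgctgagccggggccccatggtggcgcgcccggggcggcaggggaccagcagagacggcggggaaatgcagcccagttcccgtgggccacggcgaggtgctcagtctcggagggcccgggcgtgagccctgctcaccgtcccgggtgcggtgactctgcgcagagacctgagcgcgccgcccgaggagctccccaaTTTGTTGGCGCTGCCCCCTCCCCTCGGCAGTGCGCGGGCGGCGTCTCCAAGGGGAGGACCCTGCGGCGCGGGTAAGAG
Of the members that passed the test below, Col8a1, Col27a1 and Col18a1 are shown because their log2 folds were at least 2 in size. The capitals mark CCAAT and GGGCGG on either strand, and Col18a1 had windows at both of its annotated starts.
Col8a1 (chr16:57754688-57754987, minus strand): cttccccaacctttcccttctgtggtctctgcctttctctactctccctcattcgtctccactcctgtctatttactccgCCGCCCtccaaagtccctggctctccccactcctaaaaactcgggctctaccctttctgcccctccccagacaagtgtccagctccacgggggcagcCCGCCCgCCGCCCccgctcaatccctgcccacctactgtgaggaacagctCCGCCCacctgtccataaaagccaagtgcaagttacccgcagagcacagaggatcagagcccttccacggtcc
Col27a1 (chr4:63215162-63215461, plus strand): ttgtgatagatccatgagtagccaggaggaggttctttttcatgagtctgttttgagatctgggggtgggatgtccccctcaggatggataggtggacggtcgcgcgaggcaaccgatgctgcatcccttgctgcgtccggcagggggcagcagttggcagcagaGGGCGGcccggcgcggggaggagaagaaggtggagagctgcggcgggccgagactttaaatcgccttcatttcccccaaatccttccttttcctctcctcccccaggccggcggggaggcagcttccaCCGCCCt
Col18a1 (chr10:77113656-77113955, minus strand): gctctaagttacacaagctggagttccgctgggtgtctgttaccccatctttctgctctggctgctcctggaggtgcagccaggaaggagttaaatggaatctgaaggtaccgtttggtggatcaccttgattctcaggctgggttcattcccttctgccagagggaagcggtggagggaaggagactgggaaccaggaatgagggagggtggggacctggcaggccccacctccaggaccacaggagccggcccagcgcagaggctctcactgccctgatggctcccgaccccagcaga
Col18a1 (chr10:77166481-77166780, minus strand): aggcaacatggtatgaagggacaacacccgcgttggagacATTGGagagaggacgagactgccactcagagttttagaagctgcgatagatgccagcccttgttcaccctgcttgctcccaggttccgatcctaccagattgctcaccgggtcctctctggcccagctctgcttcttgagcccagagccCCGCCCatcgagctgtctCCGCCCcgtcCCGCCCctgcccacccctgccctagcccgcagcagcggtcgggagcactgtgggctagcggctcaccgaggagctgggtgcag
The GC box letters GGGCGG, searched on both strands, occurred in 19 of 29 member windows (65.5%), against 35.7% of all 32851 windows in the table. They occurred 4 times in the window of Col8a1, 2 times in that of Col27a1, and 0 and 3 times in those of Col18a1. The CCAAT letters occurred in 11 member windows (37.9%, against 37.4% of all windows) and the TATA box letters TATAAA in 4 (13.8%, against 13.6%). These matches describe the letters of the windows and were not tested against the folds. Col4a5 and Col4a6, also transcribed in opposite directions, had annotated starts 1343 bases apart on the X chromosome.

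The arrays of both sites differed in array median and in the 3′ to 5′ drop of a control transcript. The log2 signals were made by the authors with RMA, and each array's median over probe sets ran from 5.23 to 5.42 on metastasis arrays and from 5.16 to 5.17 on primary arrays. The signal of the actin control dropped between its 3′ and 5′ probe sets by 4.85, 4.55, 5.72 and 6.18 on metastasis arrays 1 to 4, against 1.90, 1.85, 1.14 and 1.08 on primary arrays 1 to 4 on the log2 scale, with no overlap (exact permutation p = 0.0286, two-sided, the smallest that 4 against 4 arrays allow). That permutation took the arrays as unpaired, although same-numbered arrays came from 1 mouse. Over all genes 3975 of 18193 passed the test, 1768 higher and 2207 lower in metastases, or 2465 higher and 1961 lower after scaling arrays to their 75th percentile. That scaling moves the fold of every gene by the same amount, 0.20, by its construction. The median over all genes was then 0.30 in place of 0.09, and the collagen median moved with it. The test throughout was limma with Benjamini-Hochberg adjustment over all 18193 genes, a threshold of 0.05 and folds given as log2 means of metastases minus those of primary tumours.

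Collagen chains moved both ways between the sites. Of the 32 members, 2 rose in bone metastases, Col27a1 and Col11a2, 4 fell, Col8a1, Col18a1, Col14a1 and Col4a2, and 26 did not pass the test. The members called were 18.8% of the list, against 21.8% of all genes, with 9.72% of all genes higher and 12.1% lower, so the share of members lay near the background. The median member fold was 0.12, and that of all genes 0.09. With mouse as a block 1 member was higher and 3 were lower (7.63% and 10.4% of all genes), because Col11a2 (limma adjusted p = 0.103) and Col4a2 (0.102) were no longer called. Without mouse 3 the 1 member called was Col14a1 (7.72% of all genes), and without mouse 4 the 2 called were Col8a1 and Col14a1 (10.7%).

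**Figure D1:**
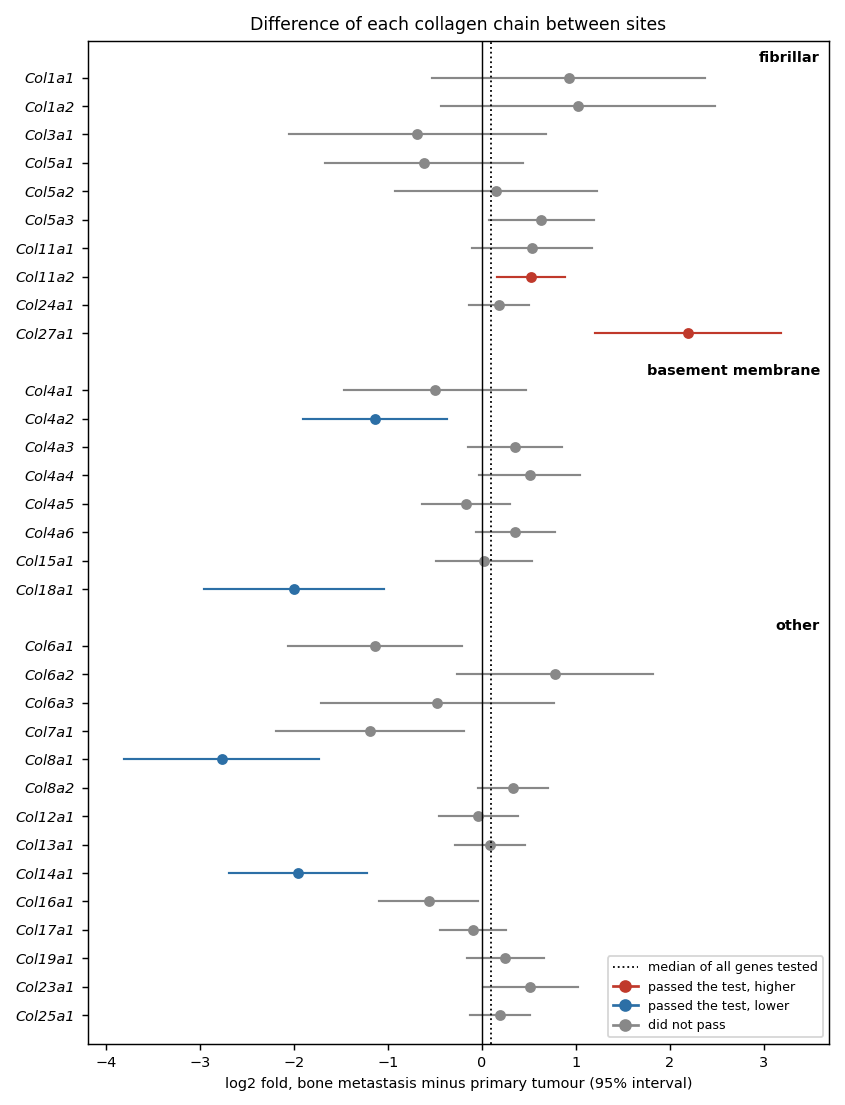
Log2 fold of each of the 32 collagen chains, bone metastasis minus primary tumour, with its 95% interval, by class. Red and blue points passed the test (2 higher, 4 lower), grey points did not, and the dotted line is the median of all genes tested (0.09).

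The signal itself was low for part of the list. On all 8 arrays 20 members lay at or above the array median, 9 lay under it and 3 crossed it. The 9 dim members were Col11a2, Col24a1, Col4a4, Col4a6, Col8a2, Col13a1, Col17a1, Col19a1 and Col23a1, and without detection calls their signal could not be told from background. Their folds ran from -0.10 for Col17a1 to 0.52 for Col11a2, with a median of 0.33, whereas the 20 brighter members had a median of -0.49. Of these 20 brighter members 4 were called lower and 1 higher. Among all 12069 genes above the array median on at least 4 arrays, 19.7% were lower and 12.4% higher, so brighter genes in general were more often lower. In bulk RNA of this kind fewer cells of a type and less RNA per cell cannot be told apart.

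**Figure D2:**
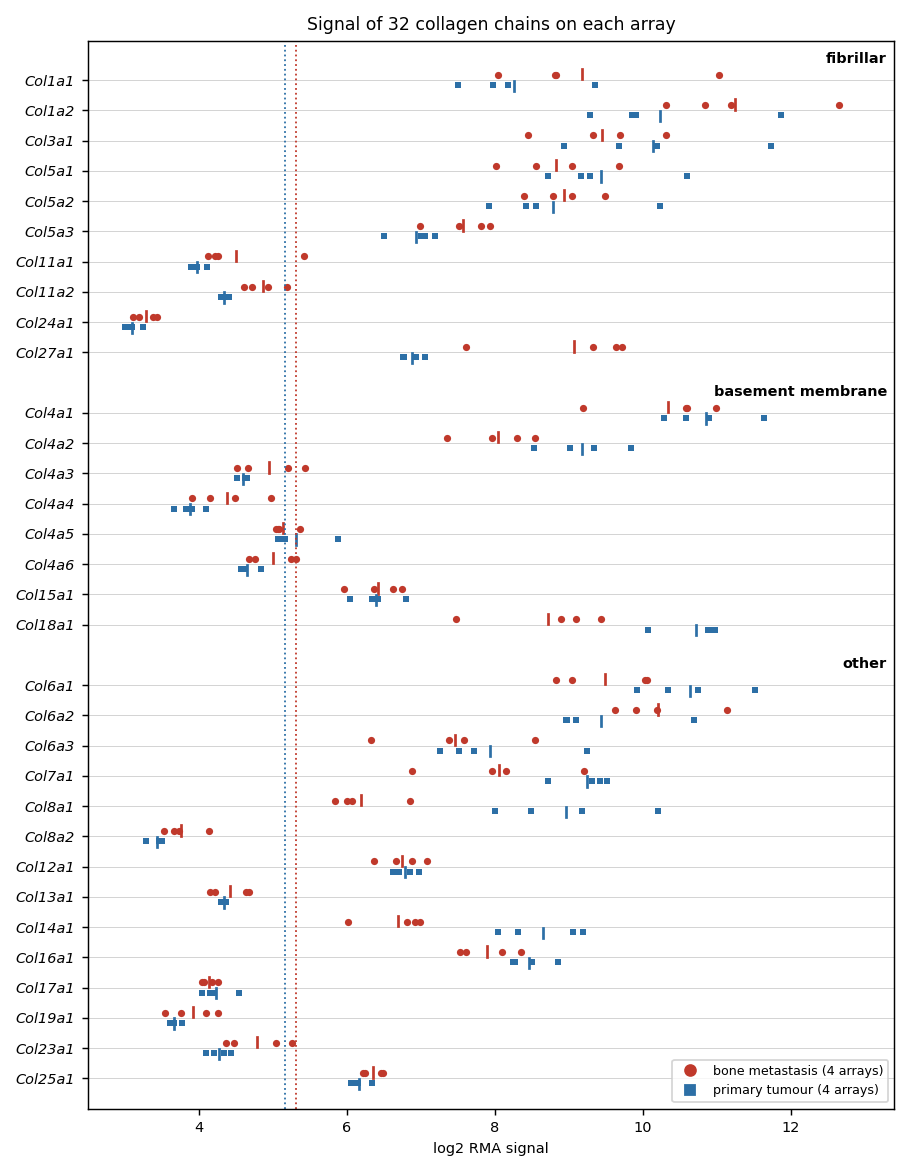
Log2 RMA signal of the 32 collagen chains on each of the 4 metastasis arrays (red circles) and 4 primary arrays (blue squares), with group means as vertical ticks and the mean array medians as dotted lines (5.31 in metastases, 5.17 in primary tumours). The groups part fully for Col27a1, Col18a1, Col8a1 and Col14a1 among the members above the array median.

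Fibrillar chains rose in 2 of 10 cases and fell in 0, so 20% were called, near the 21.8% of all genes. Their median fold of 0.53 lay between those of Col11a1 and Col11a2, which were under the array median on 7 and 8 arrays. Col27a1, which encodes a fibrillar chain known from developing cartilage and other tissues in mice, had log2 signals of 9.72, 7.60, 9.33 and 9.64 on metastasis arrays 1 to 4, against 7.06, 6.76, 6.78 and 6.94 on primary arrays 1 to 4. All 4 metastasis arrays lay above all 4 primary arrays, and metastasis array 2 was the lowest of its group. The means were 9.07 ± 0.99 in metastases and 6.88 ± 0.14 in primary tumours (SD, n = 4 each), a fold of 2.19 (SE 0.43, limma adjusted p = 0.00936) or 4.57 on the linear scale, higher in all 4 mice. Its other probe set gave 0.78 (SE 0.26, limma adjusted p = 0.0643), with the adjustment for such further probe sets taken over all 34945 of them, so the size and the call rest on the probe set. The call was also lost without mouse 3 (limma adjusted p = 0.0819), without mouse 4 (0.0657) and without metastasis arrays 1 and 3 (0.0684) or 3 and 4 (0.0627).

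Col11a2, a chain of type XI collagen that joins type II collagen in cartilage fibrils, had log2 signals of 4.93, 4.72, 4.62 and 5.19 on metastasis arrays 1 to 4, against 4.33, 4.41, 4.30 and 4.34 on primary arrays 1 to 4. The groups did not overlap, yet all 8 values lay under the array median. The fold was 0.52 (SE 0.16, limma adjusted p = 0.0466). It kept its call under 8 of the 21 alternatives that gave it a value, and the adjusted p reached 0.146. Its partner chain Col11a1 had signals of 5.42, 4.22, 4.13 and 4.27 on metastasis arrays 1 to 4, against 3.98, 3.91, 3.90 and 4.11 on primary arrays 1 to 4, with metastasis array 1 far above the other 7 arrays. Its fold of 0.53 (SE 0.28, limma adjusted p = 0.208) did not pass, although the groups did not overlap.

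The chains of type I collagen, the main fibre of bone, did not pass the test. Col1a1 had log2 signals of 11.02, 8.05, 8.83 and 8.81 on metastasis arrays 1 to 4, against 9.36, 8.18, 7.51 and 7.98 on primary arrays 1 to 4, a fold of 0.92 (SE 0.64, limma adjusted p = 0.326) with a 95% interval of -0.53 to 2.38. Metastasis array 1 was the highest of all 8, and primary array 1 came next. Col1a2, the partner chain, had signals of 12.65, 10.84, 11.19 and 10.31 on metastasis arrays 1 to 4, against 11.87, 9.91, 9.28 and 9.85 on primary arrays 1 to 4, and array 1 was again the highest at each site. Its fold was 1.02 (SE 0.64, limma adjusted p = 0.284) with an interval of -0.44 to 2.48. With mouse as a block the SEs were smaller, but neither chain passed. They were 0.27 for Col1a2 (limma adjusted p = 0.0515) and 0.32 for Col1a1 (0.0994). The per-mouse differences of Col1a2 were 0.78, 0.93, 1.91 and 0.46 in mice 1 to 4, all above 0, and those of Col1a1 were 1.67, -0.13, 1.33 and 0.83. Without mouse 1, whose arrays were both high, the Col1a2 fold was also positive and passed (limma adjusted p = 0.0458). The other probe sets of Col1a2 gave 0.42 and -0.0052, so its direction rests on the probe set, and that of Col1a1 gave 0.20.

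The fibrillar chains of types III, V and XXIV did not pass the test either. Col3a1, the only chain of type III collagen, common in stretchable tissue and wound stroma, had signals of 10.31, 8.45, 9.69 and 9.32 on metastasis arrays 1 to 4, against 11.73, 10.19, 8.94 and 9.67 on primary arrays 1 to 4. It was lower in mice 1, 2 and 4 and higher in mouse 3, and its fold of -0.69 (SE 0.60, limma adjusted p = 0.431) had an interval of -2.06 to 0.68. Type V collagen sits inside type I fibrils and starts their assembly. Its chain Col5a1 had a fold of -0.61 (SE 0.46, limma adjusted p = 0.366), which was 0.042 without mouse 1, and Col5a2 had a fold of 0.15 (SE 0.47, limma adjusted p = 0.839). Primary array 1 held the highest value of both (10.60 and 10.23). Col5a3, the chain of type V found in fewer tissues, had signals of 7.52, 7.0, 7.94 and 7.82 on metastasis arrays 1 to 4, against 7.19, 7.01, 6.50 and 7.05 on primary arrays 1 to 4 and a fold of 0.63 (SE 0.25, limma adjusted p = 0.100), and it passed without metastasis array 2 (0.82, limma adjusted p = 0.0252). Col24a1, the remaining fibrillar chain, was under the array median on all arrays and had a fold of 0.18 (SE 0.14).

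Of the basement membrane chains, 0 of 8 rose and 2 fell, with a median of -0.07, so 25% were called, near the 21.8% of all genes. Col18a1, a heparan sulphate proteoglycan core whose C-terminal fragment is endostatin, had log2 signals of 7.47, 9.43, 8.89 and 9.09 on metastasis arrays 1 to 4, against 10.88, 10.07, 10.98 and 10.96 on primary arrays 1 to 4. The groups did not overlap, metastasis array 1 was the lowest, and primary array 2 stood below its group. The means were 8.72 ± 0.86 in metastases and 10.72 ± 0.44 in primary tumours (SD, n = 4 each), a fold of -2.0 (SE 0.42, limma adjusted p = 0.0117), 4-fold lower and lower in all 4 mice. Its other probe set gave -1.80 (SE 0.55, limma adjusted p = 0.0488). The call was lost without mouse 3 (limma adjusted p = 0.0839) and without mouse 4 (0.0622). Col15a1, its relative in the multiplexin family, differed little, with 6.42 ± 0.35 in metastases and 6.40 ± 0.31 in primary tumours (SD, n = 4 each) and an interval of the fold of -0.49 to 0.54.

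Type IV chains are encoded by pairs of neighbouring genes. Col4a2 had signals of 7.36, 8.55, 8.31 and 7.97 on metastasis arrays 1 to 4, against 9.84, 8.53, 9.34 and 9.01 on primary arrays 1 to 4, a fold of -1.14 (SE 0.34, limma adjusted p = 0.0429). Metastasis array 2 reached into the primary range, and the per-mouse differences were -2.48, 0.02, -1.04 and -1.04, the smallest in mouse 2 and the largest in mouse 1. The call was lost under 15 of 23 alternatives, with adjusted p from 0.0237 to 0.181 over all of them. Its partner Col4a1, whose start lies 21 bases away, had signals of 9.20, 10.59, 10.60 and 10.99 on metastasis arrays 1 to 4, against 11.64, 10.28, 10.89 and 10.59 on primary arrays 1 to 4 and a fold of -0.50 (SE 0.43, limma adjusted p = 0.416). The per-mouse differences of Col4a1 were -2.44, 0.31, -0.29 and 0.41, and without mouse 1 its fold was 0.14. The other probe set of Col4a1 gave -0.62 (SE 0.50). The difference between both chains' folds was not tested.

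Of the chains of the kidney and epithelial type IV networks, Col4a4 and Col4a6 lay under the array median on all 8 arrays, Col4a3 on 7 and Col4a5 on 5. Col4a3 and Col4a4, partners with Col4a5 in the kidney's filter, had folds of 0.35 (SE 0.22) and 0.51 (SE 0.24), and Col4a6 had 0.36 (SE 0.19). None of these 3 passed the test. For Col4a5 the brightest probe set gave -0.17 (SE 0.21), whose sign turned after scaling to the 75th percentile (0.030), and the other gave -1.57 (SE 0.52, limma adjusted p = 0.0673).

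Among the other 14 members 0 rose and 2 fell, with a median of -0.07, so 14.3% were called, against 21.8% of all genes. Col8a1, a short chain of the hexagonal networks of vessel walls and the cornea, had the largest fall. Its signals were 6.01, 6.85, 5.84 and 6.07 on metastasis arrays 1 to 4, against 10.20, 8.0, 9.18 and 8.48 on primary arrays 1 to 4, and the highest metastasis value lay below the lowest primary value. The means were 6.19 ± 0.45 in metastases and 8.97 ± 0.95 in primary tumours (SD, n = 4 each), a fold of -2.77 (SE 0.46, limma adjusted p = 0.00448) or 6.83-fold lower, and it was lower in all 4 mice. A further probe set gave -1.35 (SE 0.33, limma adjusted p = 0.0219) and another, under 5 on all 8 arrays, gave -0.075 (SE 0.18). The call was lost without mouse 3 (limma adjusted p = 0.0507). Its partner Col8a2 lay under the array median on every array, at 3.77 ± 0.26 in metastases and 3.43 ± 0.10 in primary tumours (SD, n = 4 each).

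Col14a1, a fibril-associated collagen that coats the surface of type I fibrils, had signals of 7.0, 6.81, 6.92 and 6.01 on metastasis arrays 1 to 4, against 8.31, 9.06, 8.04 and 9.19 on primary arrays 1 to 4. All 4 metastasis values lay below all 4 primary values, and primary arrays 2 and 4 were the brightest. The means were 6.69 ± 0.45 in metastases and 8.65 ± 0.56 in primary tumours (SD, n = 4 each), a fold of -1.96 (SE 0.32, limma adjusted p = 0.00448), 3.9-fold lower. It was called under all 23 alternatives, with folds from -2.24 to -0.83. Other probe sets gave -0.71 (SE 0.31, limma adjusted p = 0.146) and 0.18 (SE 0.16), the last on signals under 5 on all arrays. The related fibril-associated chains did not pass. Col12a1 had a fold of -0.04 (SE 0.18), with 0.16 after scaling to the 75th percentile and 0.14 after quantile normalization, and its other probe sets ran from -0.98 to 0.33. Col16a1 had a fold of -0.57 (SE 0.23, limma adjusted p = 0.116) and was lower in all 4 mice, and Col19a1 was dim, with a fold of 0.25 (SE 0.18).

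Type VI collagen forms beaded filaments around cells from 3 chains that must assemble together, and none of these genes passed the test. Col6a1 had signals of 9.05, 10.03, 10.06 and 8.83 on metastasis arrays 1 to 4, against 11.51, 9.92, 10.75 and 10.35 on primary arrays 1 to 4 and a fold of -1.14 (SE 0.41, limma adjusted p = 0.0781). Col6a2 had signals of 9.62, 9.91, 11.13 and 10.19 on metastasis arrays 1 to 4, against 10.69, 9.10, 8.98 and 8.96 on primary arrays 1 to 4 and a fold of 0.78 (SE 0.46, limma adjusted p = 0.255), with primary array 1 apart from its group. Without mouse 1 the Col6a2 fold was 1.39 and passed (limma adjusted p = 0.0314), and without mouse 2 the Col6a1 fold was -1.56 and passed (0.0493). Col6a3 had a fold of -0.48 (SE 0.54) with an interval of -1.71 to 0.76. The per-mouse differences were -2.46, 0.10, -0.69 and -1.51 for Col6a1 and -1.07, 0.81, 2.15 and 1.23 for Col6a2, of opposite sign in mice 3 and 4.

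Col7a1, the chain of the anchoring fibrils that fix epithelia to their stroma, had signals of 6.88, 8.15, 7.97 and 9.21 on metastasis arrays 1 to 4, against 9.42, 8.73, 9.31 and 9.51 on primary arrays 1 to 4. It was lower in all 4 mice, and metastasis array 4 reached the primary range. Its fold of -1.19 (SE 0.44, limma adjusted p = 0.0863) did not pass, but it did without metastasis array 4 (-1.58, limma adjusted p = 0.0183) and with array weights (-1.36, 0.0351). The membrane-spanning chains were flat or dim. Col17a1, of the hemidesmosomes of stratified epithelia, was at 4.14 ± 0.10 in metastases and 4.24 ± 0.22 in primary tumours (SD, n = 4 each), and Col13a1, found at cell adhesions, had a fold of 0.09 (SE 0.16) that was -0.082 after quantile normalization. The Col17a1 fold of -0.096 was 0.11 after scaling to the 75th percentile. Col23a1 had a fold of 0.51 (SE 0.22, limma adjusted p = 0.132), and a dimmer probe set of it gave 0.63 (SE 0.14, limma adjusted p = 0.0155) and passed. Col25a1, known from neurons, had 6.35 ± 0.14 in metastases and 6.17 ± 0.12 in primary tumours (SD, n = 4 each) and did not pass.

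**Figure D3:**
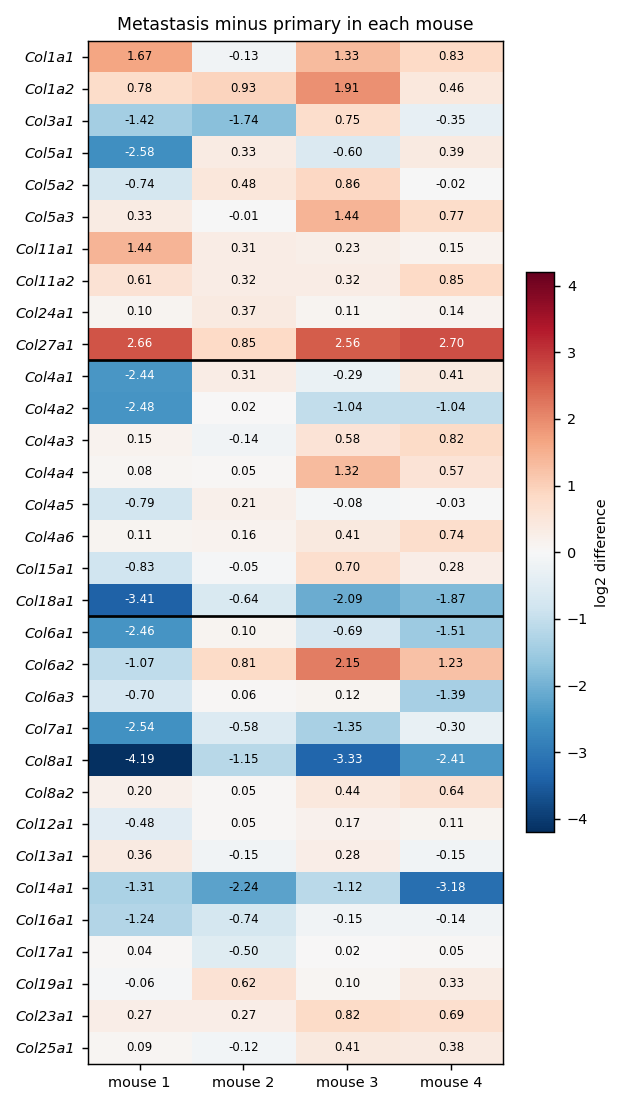
Log2 difference of metastasis minus primary tumour in each of the 4 mice (columns) for the 32 collagen chains (rows, with black lines between the fibrillar, basement membrane and other classes), red above 0 and blue below. Col27a1 is red and Col18a1, Col8a1 and Col14a1 are blue in every mouse, and mouse 1 holds the deepest blue of the Col4a1, Col4a2, Col5a1 and Col6a1 rows.

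The same direction in all 4 mice was seen for 14 of the 32 members, 9 higher and 5 lower, against 43.9% of all genes. The groups did not overlap for 4 members that were higher (Col27a1, Col11a1, Col11a2 and Col8a2) and 3 that were lower (Col18a1, Col8a1 and Col14a1), against 15.2% and 14.2% of all genes. Primary array 1 was the highest of its group for 15 of the 20 members that lay at or above the array median on all arrays (75%), against 36.7% of the 9776 genes of that kind. Among them were Col1a1, Col1a2, Col3a1, the type IV chains Col4a1 and Col4a2, the type VI chains and Col8a1. On the metastasis side array 1 was the highest for 7 of these 20 members (35%, against 32.8% of the same genes) and the lowest for 8 (40%, against 23.9%).

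**Figure D4:**
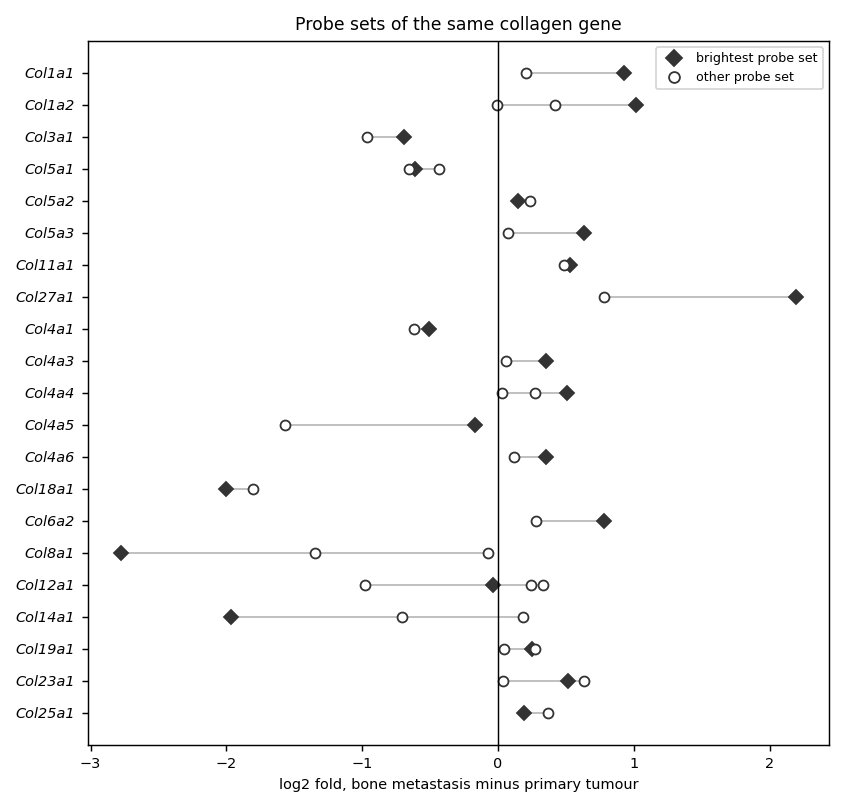
Log2 fold, bone metastasis minus primary tumour, of every probe set of the 21 collagen genes that had more than 1, with the brightest probe set as a filled diamond and the others as open circles. The probe sets of Col8a1, Col14a1, Col27a1, Col4a5, Col12a1 and Col1a2 lie more than 1 log2 unit apart.

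The 32 members had 62 probe sets, 21 members had more than 1 and at most 4. Of the 30 that were not the brightest of their gene, 4 lay on the opposite side of 0, in Col12a1, Col14a1 and Col1a2. Of those of members without a call, 1 passed, that of Col23a1, whose signals lay under the array median on all arrays. Of all 34945 probe sets 20.6% passed. The 3′ to 5′ drop of the actin control given above was larger in metastases, and its part in the collagen folds was not tested.

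Of the 18 measured genes that fold and hydroxylate collagen in the endoplasmic reticulum, 9 fell and 0 rose, with a median of -1.03, against 12.1% and 9.72% of all genes lower and higher. Most genes of this list were bright. Of the 15 above the array median on at least 4 arrays 9 fell, against 19.7% of all such brighter genes. P4ha1, the catalytic subunit of collagen prolyl 4-hydroxylase, had signals of 6.85, 7.22, 5.72 and 6.34 on metastasis arrays 1 to 4, against 9.87, 9.77, 9.99 and 10.01 on primary arrays 1 to 4. Its fold was -3.38 (SE 0.30, limma adjusted p = 0.000497), or 10.4-fold lower. Its other probe set gave -0.71 (SE 0.23, limma adjusted p = 0.0632), so both the size and the call rest on the brightest probe set. Plod1 and Plod3, lysyl hydroxylases that prepare cross-links and sugar attachment, had folds of -2.01 (SE 0.28, limma adjusted p = 0.00239) and -1.15 (SE 0.19, limma adjusted p = 0.00470). Crtap, of the prolyl 3-hydroxylase complex, had a fold of -2.39 (SE 0.40, limma adjusted p = 0.00483). The other genes that fell were P4ha2, P4hb, Plod2, P3h3 and Fkbp14, with folds from -2.17 to -1.42. Serpinh1, the chaperone Hsp47 that binds the collagen triple helix, did not pass, at -0.90 (SE 0.37, limma adjusted p = 0.114), nor did Ppib, at 0.64 (SE 0.20, limma adjusted p = 0.0540). The number lower was 9 with mouse as a block too, against 10.4% of all genes, and it was 4 without mouse 3, against 3.89% of all genes.

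Genes that process and cross-link procollagen outside the cell fell in 3 of 10 cases and rose in 0, with a median of -0.13. So 30% were called, against 21.8% of all genes. Of the 6 brighter genes of this list 3 fell, against 19.7% of all brighter genes. Bmp1, which cuts off the C-propeptide, had signals of 7.01, 8.33, 7.58 and 9.10 on metastasis arrays 1 to 4, against 9.98, 9.21, 10.19 and 9.88 on primary arrays 1 to 4 and a fold of -1.81 (SE 0.44, limma adjusted p = 0.0200). Pcolce2, an enhancer of that step, had a fold of -1.36 (SE 0.36, limma adjusted p = 0.0301), and Loxl3, of the lysyl oxidase family that forms cross-links, -1.0 (SE 0.30, limma adjusted p = 0.0459). Loxl3 was not called with mouse as a block (limma adjusted p = 0.0526). Lox itself had a fold of -0.88 (SE 0.42) and did not pass.

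Of 9 collagen receptors, 2 fell and 0 rose, with a median of 0.14, so 22.2% were called, near the 21.8% of all genes. Lair1, an inhibitory collagen receptor of leukocytes, had signals of 5.19, 6.27, 5.16 and 4.99 on metastasis arrays 1 to 4, against 8.52, 8.62, 8.66 and 9.17 on primary arrays 1 to 4 and a fold of -3.34 (SE 0.30, limma adjusted p = 0.000498). Itgb1, the beta subunit of the collagen-binding integrins, had a fold of -1.96 (SE 0.37, limma adjusted p = 0.00783), and of its other 5 probe sets 2 were called lower (-3.56 and -0.99, limma adjusted p = 0.00238 and 0.0325), while 3 were not called (-0.13, -0.035 and 0.25). The kinase receptors Ddr1 and Ddr2 had folds of 0.75 (SE 0.43) and -0.69 (SE 0.60) and did not pass. Of 8 genes that degrade collagen, 2 fell and 1 rose, with a median of -0.21, so 37.5% were called, against 21.8% of all genes. Of the 7 brighter genes of this list 2 fell and 1 rose, against 19.7% and 12.4% of all brighter genes. The membrane collagenase Mmp14 had a fold of -2.50 (SE 0.32, limma adjusted p = 0.00170), with other probe sets at -3.16 (limma adjusted p = 0.00108) and -0.81 (0.0971), and the collagenase Mmp13 of -4.71 (SE 0.87, limma adjusted p = 0.00703). The neutrophil collagenase Mmp8 rose, by 2.64 (SE 0.76, limma adjusted p = 0.0381).

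Partners of type IV collagen in basement membranes fell in 4 of 15 cases and rose in 2, with a median of -0.40. So 40% were called, against 21.8% of all genes. Of the 11 brighter partners 4 fell and 2 rose, against 19.7% and 12.4% of all brighter genes. Lamc1 and Lama5, laminin chains, had folds of -2.18 (SE 0.45, limma adjusted p = 0.0105) and -1.97 (SE 0.37, limma adjusted p = 0.00715). The other probe set of Lamc1 gave -0.55 (SE 0.24, limma adjusted p = 0.148) and was not called. Those of Lama5 gave -2.50 (limma adjusted p = 0.00404) and 0.22 (0.373). Agrn, the proteoglycan agrin, had a fold of -2.03 (SE 0.34, limma adjusted p = 0.00497), and Pxdn, the peroxidase that makes the cross-link between type IV molecules, -1.64 (SE 0.31, limma adjusted p = 0.00809). Hspg2, which encodes perlecan, had signals of 8.74, 8.72, 8.82 and 9.34 on metastasis arrays 1 to 4, against 8.31, 8.33, 8.13 and 8.10 on primary arrays 1 to 4 and a fold of 0.69 (SE 0.18, limma adjusted p = 0.0257). The other probe set of Hspg2 gave 0.43 (SE 0.32) and was not called. Lama2, the laminin chain of muscle and nerve sheaths, had a fold of 0.82 (SE 0.23, limma adjusted p = 0.0331). Neither of these rises was called with mouse as a block (limma adjusted p = 0.0747 and 0.0804). Probe sets on the other side of 0 were also found for Agrn (0.10), Bmp1 (0.11), Fkbp14 (0.16) and Plod1 (0.0094), and a further probe set of Bmp1 was called lower (-2.64, limma adjusted p = 0.000649).

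The cartilage collagens, which were not counted among the members, rose in 1 of 5 cases (20%, against 9.72% of all genes higher). Col2a1, the main fibrillar chain of cartilage, had signals of 7.15, 5.52, 6.07 and 6.67 on metastasis arrays 1 to 4, against 4.85, 5.04, 4.85 and 4.81 on primary arrays 1 to 4 and a fold of 1.47 (SE 0.32, limma adjusted p = 0.0141). The 3 type IX chains and Col10a1, of hypertrophic cartilage, had folds from 0.02 to 0.65 and did not pass.

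**Figure D5:**
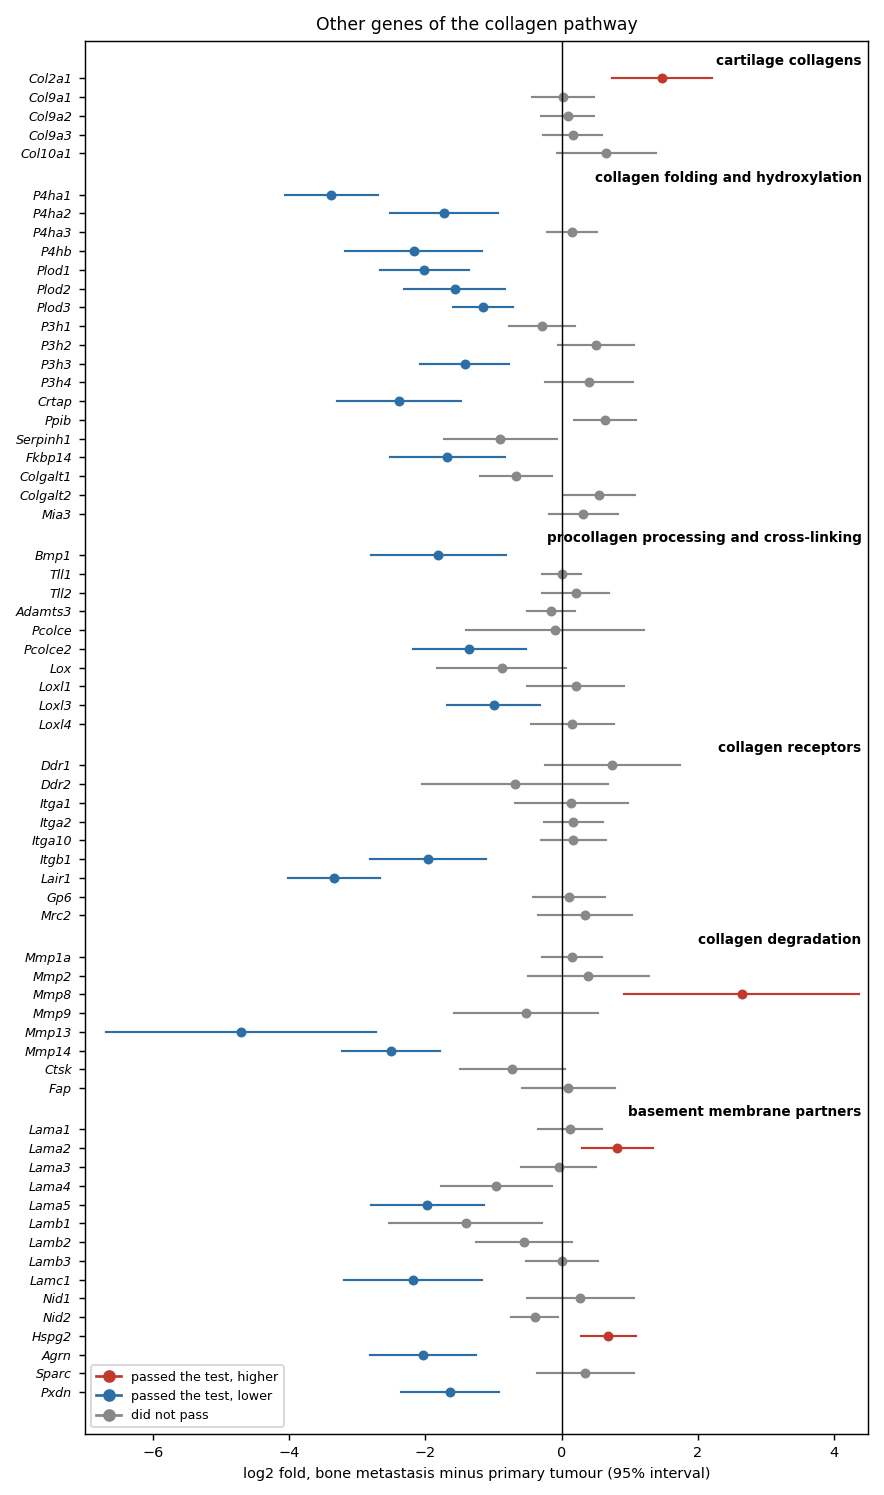
Log2 fold, bone metastasis minus primary tumour, with 95% intervals for 65 further genes of collagen biology in 6 lists. Blue marks the 20 that passed lower and red the 4 that passed higher, and 9 of the blue points are in the folding and hydroxylation list.

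Some markers of other cell types differed between the sites, and their part in the collagen results was not tested. Summed levels are log2 of the summed linear signals of a list. The counts below stand against 9.72% of all genes called higher and 12.1% called lower. Of 9 fibroblast markers 3 rose and 1 fell, with 5 folds above 0, 4 below and a median of 0.10. The list summed to 12.19 to 13.20 on metastasis arrays and 10.64 to 11.99 on primary arrays, with no overlap. Dcn and Thy1 had the highest mean signals of the list in metastases (11.20 and 11.03), so they weigh most in that sum. Dcn and Thy1 rose by 2.51 and 3.82, and Pdgfra fell by 2.15, a call that was lost with mouse as a block (limma adjusted p = 0.0591). Of 5 osteoblast markers 1 rose, Ibsp, at 6.86 ± 0.87 in metastases and 4.12 ± 0.44 in primary tumours (SD, n = 4 each), and the list summed to 7.98 to 8.79 on metastasis arrays and 7.31 to 7.71 on primary arrays. Of 7 chondrocyte markers Acan and Col2a1 rose, while Matn1, Matn3, Hapln1 and Col9a1 did not pass. Sox9 did not pass either, with a fold of -1.18 (limma adjusted p = 0.122), and was lower in all 4 mice. The list summed to 9.61 to 11.25 on metastasis arrays and 9.37 to 10.01 on primary arrays. Of 5 tendon markers Fmod and Thbs4 rose, while Tnmd, Scx and Mkx lay under the array median on all arrays, and the list summed to 9.32 to 12.29 on metastasis arrays and 6.60 to 7.04 on primary arrays. Of 7 smooth muscle and pericyte markers 2 rose, Rgs5 and Cspg4, neither of them with mouse as a block (limma adjusted p = 0.0722 and 0.105), and the list summed to 10.45 to 11.91 on metastasis arrays and 9.52 to 10.47 on primary arrays. None of the 6 endothelial markers was called, with sums of 7.70 to 8.34 on metastasis arrays and 7.80 to 8.32 on primary arrays.

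Tumour cell markers varied within the metastases. Of 8 epithelial markers 1 fell, Krt19, and 0 rose. Krt8 had signals of 7.34, 12.39, 9.80 and 12.97 on metastasis arrays 1 to 4, against 13.32, 13.07, 13.19 and 13.22 on primary arrays 1 to 4, with metastasis arrays 1 and 3 below the other 6 arrays, and the list summed to 9.78 to 13.67 on metastasis arrays and 13.69 to 13.81 on primary arrays. Krt8 had the highest mean signal of the list at both sites. It weighs most in that sum except on metastasis array 1, where Epcam was higher (8.34). Krt18, Krt7, Krt19 and Krt5 also had their lowest metastasis values on arrays 1 and 3, but Epcam, Cdh1 and Krt14 did not. Cdh1 had 7.0, 7.89, 6.96 and 5.74 on metastasis arrays 1 to 4, and its fold of 0.43 did not pass. Without metastasis arrays 1 and 3 the 3 members called lower were Col8a1, Col18a1 and Col14a1 and 0 were called higher, against 8.25% and 7.41% of all genes. Of 6 macrophage markers 5 fell, with sums of 12.43 to 13.80 on metastasis arrays and 14.68 to 15.46 on primary arrays. Of 4 Schwann cell and nerve markers 3 rose, with sums of 11.96 to 13.35 on metastasis arrays and 7.58 to 7.72 on primary arrays, of 6 skeletal muscle markers 1 rose (7.48 to 8.09 on metastasis arrays and 7.32 to 7.49 on primary arrays), and all 3 B lineage markers rose (10.67 to 14.29 on metastasis arrays and 6.16 to 6.78 on primary arrays). No marker of any list was at 0 on this scale.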

How the data were processed

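RNA of 4 bone metastases and 4 primary tumours was hybridized to 8 one-colour arrays. The authors deposited log2 signals, 1 per probe set and array. The submitters' processing notes name RMA, a method of background correction, normalization between arrays and summary over probes, with the version not given in the sources used here. Arrays have no read depth, so their number limits the precision (median SE of a fold 0.264 for members and 0.229 for all genes).

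Of 45101 probe sets, 64 controls, 932 with several symbols and 9160 with none listed were left out, and 34945 with 1 symbol gave 18193 genes. The gene table of GRCm38.p6 held 34741 of their identifiers and updated 0 symbols. The brightest probe set stood for each gene. limma 3.58.1 (lmFit, eBayes, R 4.3.3) compared the groups without a block, two-sided. Per the series' design text a replicate number marks a mouse, so a fit with mouse as a block was run too. Deviations from the group means of same-numbered arrays correlated at 0.17, 0.01, 0.02 and -0.11 across genes. Replicates shared no identical values. Alternatives changed the probe set, filter, scaling, variance model, weights, block and arrays used. All 32 members are named, and of the other lists up to 4 genes in each direction with the smallest adjusted p. Members, lists and tests were chosen with earlier results of these data known. The remaining folding genes, Serpinh1, Ppib, Lox, Ddr1 and Ddr2 were named after their values were seen. The fit was also run on simulated signals with independent arrays and no mouse effect, unlike the design here, and the outcome is not given here. Python 3.11.15, numpy 2.4.6, pandas 2.3.3, scipy 1.17.1 and matplotlib 3.10.9 were used.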

Additional observations from a re-analysis of the deposited data

Results flagged for a closer look

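Of 68 groups of 4 arrays examined, the 32 members and the actin and Gapdh drops at each site, 6 held an array set far apart from the other 3, and chance alone sets 1 in 20 apart. Col11a1 had 5.42 on metastasis array 1, against at most 4.27 on the others. Col4a5 had 5.37 on metastasis array 2, against at most 5.09 on the others, and 5.88 on primary array 1, against at most 5.17. Col4a6 had 4.84 on primary array 3, against at most 4.61. Col18a1 had 10.07 on primary array 2, against at least 10.88. Col6a2 had 10.69 on primary array 1, against at most 9.10.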

How the results depend on the processing

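The calls of Col14a1 held under all 23 alternatives, those of Col8a1, Col18a1 and Col27a1 under 22, 21 and 19, and those of Col11a2 and Col4a2 under 8 each. The number of members higher was 2 as reported and 1 with either filter on dim genes, after quantile normalization, with the replicate block and without metastasis arrays 3 and 4, and it was 0 without metastasis arrays 1 and 3. Of all genes 9.72% were higher as reported, and 12.4% and 12.5% of those kept by the filters on the array median and on mean signal. The share was 10.5% after quantile normalization, 7.63% with the block, 10.6% without metastasis arrays 3 and 4, and 7.41% without arrays 1 and 3. Both settings that leave out 2 metastasis arrays were chosen after seeing the data. The member median of 0.12 was -0.49 and -0.50 with the filters, which leave out dim members. Of all genes kept by these filters 19.7% and 23.5% were called lower, against 12.1% of all genes tested. Of the other pathway genes 4 were higher as reported, but 2 with the filter on mean signal and with the replicate block. The block changed no other member's call than those of Col11a2 and Col4a2, and in the pathway lists it ended those of Loxl3, Lama2 and Hspg2, and among the markers those of Pdgfra, Rgs5 and Cspg4.

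With 1 array or 1 mouse left out, members higher ranged from 0 to 3 and lower from 1 to 5, pathway genes higher from 0 to 7 and lower from 9 to 21 (20 as reported), and all genes called from 1405 to 4813 (3975 as reported, 1405 without mouse 3 and 1942 without mouse 4). Of all genes, 3.83% to 11.6% were then called higher and 3.89% to 14.9% lower. The folds that changed sign were all of members without a call. After 75th percentile scaling Col4a5, Col12a1 and Col17a1 were at 0.030, 0.16 and 0.11, and after quantile normalization Col12a1 and Col13a1 were at 0.14 and -0.082. Col1a2 was at -0.0052 on its most variable probe set. Without metastasis arrays 1 and 3 Col5a2, Col12a1 and Col13a1 were at -0.062, 0.087 and -0.15, and without arrays 3 and 4 Col4a3, Col15a1 and Col6a3 were at -0.014, -0.24 and 0.13. Leaving out 1 array or mouse turned members whose folds then ranged as follows, Col12a1 from -0.15 to 0.11, Col13a1 from -0.0060 to 0.18, Col15a1 from -0.20 to 0.31, Col17a1 from -0.16 to 0.038, Col4a1 from -0.81 to 0.14, Col4a5 from -0.30 to 0.031, Col5a1 from -0.95 to 0.042 and Col5a2 from -0.14 to 0.63. The cause was not tested. The number of arrays and the low signal of 9 members limit the precision.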
